A study of Mus musculus with 3 samples.

Results

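The endothelial cells of a Tsc22d3-knockout mouse testis were taken from a single-cell RNA library as barcodes that carried transcripts of blood vessel lining without those of Leydig cells or macrophages. A barcode was kept when it held 500 or more UMIs (unique molecular identifiers, 1 per captured transcript molecule) from 200 or more genes, with no more than 20% of them from mitochondrially encoded genes. A kept barcode was called endothelial when 3 or more of the 7 genes Pecam1, Cdh5, Kdr, Egfl7, Emcn, Tie1 and Cldn5 were detected with 4 or more UMIs in sum. The Leydig genes Star, Cyp11a1, Cyp17a1, Hsd3b1, Hsd3b6 and Insl3 had to take under 0.5% of its UMIs, and C1qa, C1qb and C1qc, which mark macrophages, under 0.1%. Of 13662 kept barcodes of the knockout testis, 138 were endothelial, a share of 1.01% (95% interval 0.849 to 1.19%, exact binomial), and the 3 libraries of the series held 17371 kept barcodes in all. The cells were thus chosen by UMI counts of these genes, and values set against other barcodes of the same library are descriptions and carry no test.

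The testis came from an adult mouse of the goGermline line (Ozgene) lacking Tsc22d3 and was dissociated by a published testis procedure. Tsc22d3 encodes a glucocorticoid-induced leucine zipper protein, and males without it are sterile through the loss of their germ cells. The KO cauda library held cells aspirated from the cauda epididymis of a Tsc22d3 knockout of the same line. The chimera cauda library came likewise from a Tsc22d3-KO chimera that carried mouse induced pluripotent stem cells, line Pax7-nGFP iPS x goGermline. Every library therefore had a knockout host, each group was 1 library, and a testis with an intact Tsc22d3 gene was not analysed here. Intervals cover counting error only, with no spread between animals.

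The knockout testis library held 134795047 UMIs in 18108 barcodes. Endothelial barcodes held 736 to 58731 UMIs, with a median of 8992.5 UMIs, 3218 genes and 4.48% mitochondrially encoded UMIs, against a median of 5429 UMIs and 7.22% in the other 13524 kept barcodes. The same rule found 0 of 3525 kept barcodes in the KO cauda, with an exact upper limit of 0.105%, and 0 of 184 in the chimera cauda, with an exact upper limit of 1.98%. No barcode there had more than 2 of the 7 genes, so all that follows concerns the testis. The testis shared 8 kept barcode sequences with the KO cauda and 0 with the chimera cauda, and none of the 8 was endothelial. All 7 genes were present in 73 of the 138 endothelial barcodes, 6 genes in 30, 5 in 19, 4 in 10 and 3 in 6. Just inside the rule, 4 barcodes had exactly 4 UMIs of the 7 genes, among them the deepest one with 58731 UMIs. In that barcode the 7 genes summed to 68.1 CPM, against a median of 7091 CPM over the 138. A list of 19 further endothelial genes also summed to 68.1 CPM there, against a median of 8700 CPM. Whether this barcode is an endothelial cell was not tested, and it was kept in all sums. Just outside it, 36 barcodes had 2 genes with 3 or more UMIs and 3 had 3 genes with 3 UMIs.

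Endothelial cells line all vessels. They hold together through VE-cadherin (Cdh5) and claudin-5 (Cldn5), grow in response to VEGF and angiopoietins, and take on arterial, capillary, venous or lymphatic character under Notch and other signals. In the testis the vessels run in the interstitium between the seminiferous tubules, beside the Leydig cells, and deliver hormones and nutrients to tubules that have no vessels of their own. Testicular capillaries of rodents have a continuous wall with no pores and carry drug efflux pumps, as brain capillaries do. Vessel cells also secrete factors that act on neighbouring stem cells, and germ cells depend on several such factors.

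Levels are given in CPM, the UMIs of a gene summed over a set of barcodes and scaled to 1000000 UMIs of that set, with exact Poisson 95% intervals. They were not scaled to gene length, since 3′ tags are counted once per molecule, and levels of different genes are not ranked against each other. Positions are from the GENCODE M21 annotation of GRCm38. Cldn5 (ENSMUSG00000041378, chromosome 16, 18776847 to 18778262), the main claudin of endothelial tight junctions, stood at 4017 CPM (3918 to 4119) in the endothelial barcodes and 5.33 CPM in the others. It was detected in 137 of 138 cells with a median of 31 UMIs and up to 172. Cdh5 (ENSMUSG00000031871, chromosome 8, 104101625 to 104144511), the cadherin of endothelial adherens junctions, stood at 794 CPM (750 to 840, in 133 cells) against 20.6 CPM. Egfl7 (ENSMUSG00000026921, chromosome 2, 26580014 to 26593120), a secreted vascular matrix protein, stood at 1111 CPM in 134 cells against 9.39 CPM. Kdr (ENSMUSG00000062960, chromosome 5, 75932827 to 75978458), the main VEGF receptor, stood at 429 CPM in 117 cells against 2.32 CPM. Emcn (ENSMUSG00000054690, chromosome 3, 137341067 to 137432185), a surface sialomucin, stood at 427 CPM in 119 cells against 2.45 CPM. Pecam1 (ENSMUSG00000020717, chromosome 11, 106654217 to 106750628), an adhesion molecule of endothelial contacts, stood at 275 CPM in 113 cells against 1.26 CPM. Tie1 (ENSMUSG00000033191, chromosome 4, 118471191 to 118490061), a receptor that modulates angiopoietin signalling, was at 175 CPM in 91 cells against 0.254 CPM. Numbers of cells with a UMI are given at full depth. With every cell thinned to 1000 UMIs, Cldn5 was found in 92.6% of endothelial cells, 0.344% of pericyte-like, 0.311% of 2278 barcodes with at least 0.5% C1q UMIs (C1q macrophages) and 0.262% of 4060 with at least 1% Leydig gene UMIs (Leydig barcodes). These 7 genes chose the cells, and their values are given for that reason only.

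Promoters are shown for 4 of the 7 genes because members of the ETS family, several of which stood high in these cells, are known to act at endothelial promoters through a GGAA core. Each window runs from 250 bases before to 50 after a RefSeq start on GRCm38.p6, is written in the direction of transcription, and has AGGAAG or its reverse complement CTTCCT in capitals. Of the 4 windows with matches, 3 are shown, those of Tie1 (chr4:118489800-118490099, minus strand), Emcn (chr3:137340828-137341127, plus strand) and the first of 3 Egfl7 starts (chr2:26580833-26581132, plus strand). The Cldn5 window (chr16:18776597-18776896, plus strand) held no match and is shown for contrast.
Tie1: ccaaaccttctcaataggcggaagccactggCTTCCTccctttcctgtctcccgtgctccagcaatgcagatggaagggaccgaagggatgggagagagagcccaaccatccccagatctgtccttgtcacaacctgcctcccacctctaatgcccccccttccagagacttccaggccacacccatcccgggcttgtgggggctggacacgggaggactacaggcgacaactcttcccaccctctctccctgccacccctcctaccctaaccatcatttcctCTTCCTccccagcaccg
Emcn: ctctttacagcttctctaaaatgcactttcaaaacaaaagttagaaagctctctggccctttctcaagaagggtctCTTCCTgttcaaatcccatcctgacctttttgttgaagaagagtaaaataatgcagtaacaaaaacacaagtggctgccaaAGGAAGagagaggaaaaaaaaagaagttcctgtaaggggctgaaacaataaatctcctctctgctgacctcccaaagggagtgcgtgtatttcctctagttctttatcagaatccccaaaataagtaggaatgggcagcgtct
Egfl7: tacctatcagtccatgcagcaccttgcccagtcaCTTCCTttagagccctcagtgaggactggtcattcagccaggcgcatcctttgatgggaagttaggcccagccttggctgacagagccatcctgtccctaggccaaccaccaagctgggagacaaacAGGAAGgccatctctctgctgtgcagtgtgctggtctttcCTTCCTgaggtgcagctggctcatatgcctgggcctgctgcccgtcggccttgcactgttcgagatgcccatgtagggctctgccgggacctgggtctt
Cldn5: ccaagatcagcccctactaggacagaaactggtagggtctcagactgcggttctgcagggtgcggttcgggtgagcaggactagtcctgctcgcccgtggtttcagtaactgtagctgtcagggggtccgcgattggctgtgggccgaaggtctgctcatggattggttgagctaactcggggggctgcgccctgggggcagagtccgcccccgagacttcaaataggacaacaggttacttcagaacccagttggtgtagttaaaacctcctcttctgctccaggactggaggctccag
Promoters were matched for 5 of the 7 genes, in 7 windows, and AGGAAG was found in 4 of these 7 against 35.4% of all 32851 mouse promoter windows. Of 8 further endothelial genes with a window, 6 held it. CCGGAAG, a second ETS motif that cannot match at the same place, was in 0 of the 7 windows against 8.86% of all. The SOX motif AACAAT was in 1 of 7 (10.7% of all), the TCF/LEF motif CTTTGA in 1 of 7 (16.003%) and the GATA motif AGATAA in 0 of 7 (11.2%). All motifs were searched on both strands, and a match says only that the letters are present.

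A gene was counted as higher or lower when it differed at least 4-fold between sets and reached 20 CPM in the set with more. Against the other 13524 kept barcodes, 708 of 7681 genes that reached 20 CPM in either set were higher in endothelial cells (9.22%) and 740 were lower (9.63%), and the median log2 ratio over all of them was 0.11. A nearer comparison was with 292 pericyte-like barcodes of the same library, which had 3 or more of Rgs5, Cspg4, Notch3, Kcnj8, Abcc9, Pdgfrb, Higd1b and Vtn with 4 or more UMIs, under 3 of the endothelial genes and the same Leydig and C1q limits. There 547 of 7863 genes were higher in endothelial cells (6.96%) and 799 were lower (10.2%), with a median log2 ratio of -0.05. The counts for gene lists below are to be read beside these shares over all genes. Pericytes wrap the same small vessels from outside. Their barcodes had a median of 4547.5 UMIs and are part of the other kept barcodes.

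Endothelial genes that the rule did not use went the same way. Of 19, 18 were higher than in the other barcodes, with a median log2 ratio of 7.13, and the same 18 were higher than in pericyte-like barcodes. Cd93, an endothelial C-type lectin receptor, stood at 927 CPM (880 to 976) in 134 of 138 cells against 3.20 CPM in other barcodes, 290-fold (258 to 326). Ptprb, the phosphatase that restrains Tie2 and VE-cadherin, stood at 742 CPM (699.9 to 787) against 1.43 CPM, 517-fold (439 to 613). Ramp2, the co-receptor for adrenomedullin, stood at 789.8 CPM in 130 cells against 18.4 CPM, and Cd34, a sialomucin of vessels and stem cells, at 1004 CPM in 135 cells against 94.1 CPM. Vwf, the platelet-binding factor stored in endothelial cells, stood at 488 CPM in 116 cells against 2.004 CPM.

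The exception was Plvap (ENSMUSG00000034845, chromosome 8, 71497765 to 71511752), which forms the diaphragms of caveolae and fenestrae in leaky vessels. It had 0 UMIs in the 138 cells against 11.2 CPM in the other barcodes. With the 0 set at a floor of 3 UMIs, 1.95 CPM, that is 5.76-fold lower. Plvap reached 20 CPM in neither set, so it was not counted as lower. In pericyte-like barcodes it had 4 UMIs, 2.82 CPM, and in C1q macrophages it stood at 1.49 CPM, both near that floor. The 0 therefore does not set the endothelial cells apart from those 2 sets. Plvap was seen elsewhere in the library: 1103 UMIs, or 17.9 CPM, lay in the Leydig barcodes. The plot of endothelial genes shows this contrast between the list and its 1 absent member. Plvap, and the other genes named below for having 0 UMIs, were singled out after their values were seen.

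**Figure D1:**
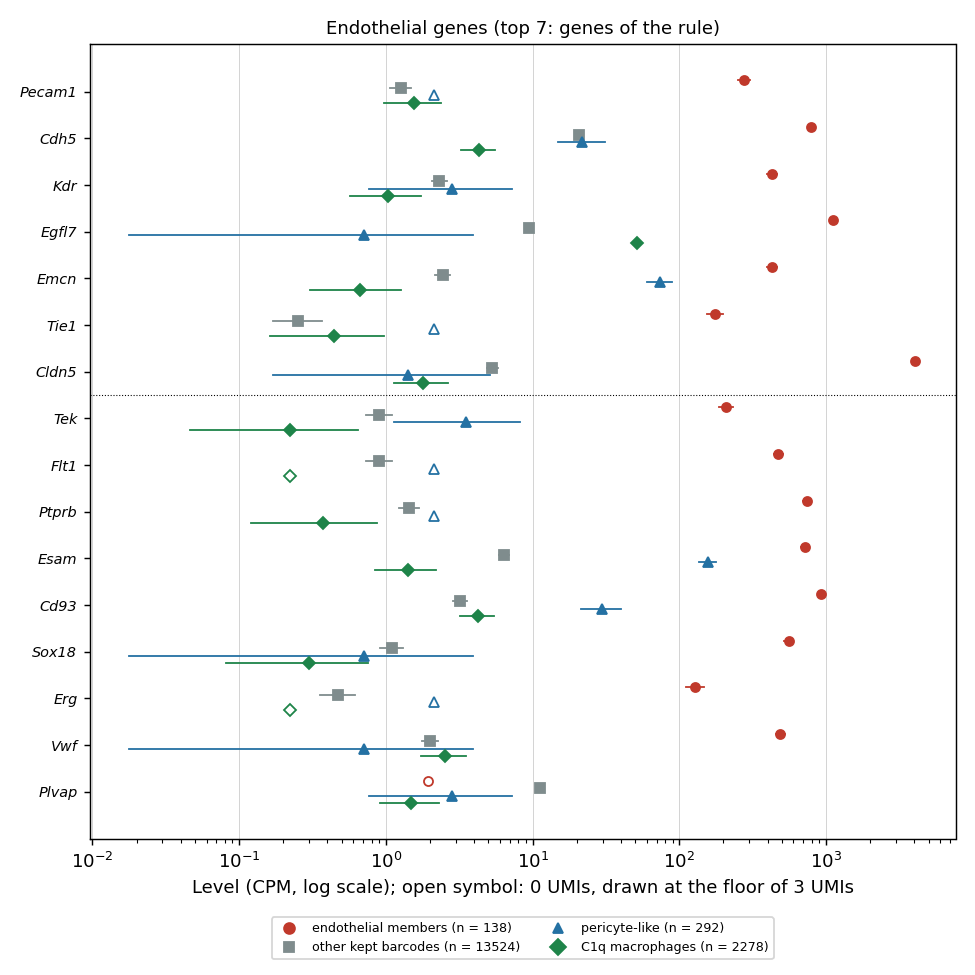
Levels of 16 endothelial genes in CPM (log scale) in 138 endothelial, 292 pericyte-like, 2278 C1q macrophage and 13524 other kept barcodes of the knockout testis; bars are 95% Poisson intervals, and open symbols mark 0 UMIs, drawn at the floor of 3 UMIs. The red endothelial points lie to the right of the other sets for every gene except Plvap, which had 0 UMIs there and 11.2 CPM in the other barcodes.

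Genes listed for other cell types were also counted in the 138 cells, and where their UMIs came from was not tested. At least 3 UMIs of pericyte genes were found in 5 cells, of smooth muscle and myoid genes in 10, of fibroblast genes in 15, of macrophage genes in 4 and of germ cell genes in 2. Genes of the Sertoli list reached 3 UMIs in 123 of the 138 cells, and in 2 cells when Wt1, Clu and Defb19 were left out of the list. UMIs of some genes sat in single cells: 253 of the 256 UMIs of Sycp3, a meiotic chromosome protein, were in 1 barcode, and 429 of the 434 UMIs of the haemoglobin gene Hbb-bs in another. Leydig genes summed to 519 CPM against 11351 CPM in the other barcodes, with at least 1 UMI in 136 cells, and C1q genes to 22.8 CPM against 1519 CPM. The rule capped both in every cell, so these low sums follow from the choice of cells. Without the 19 cells that had 3 or more UMIs of pericyte, fibroblast, macrophage or germ cell genes, the counts of higher genes given for the pan-endothelial, barrier, junction, VEGF, Notch, Wnt, BMP, transcription factor and niche lists stayed within 1.5 times their values. That choice was made after seeing the data. Leaving out the cells with 3 or more UMIs of Sertoli genes as well left 13 cells, in which 5 Notch genes were higher in place of 8 and the other 8 of these counts stayed within 1.5 times. No doublet caller was run.

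Pumps and carriers of barrier endothelium were mostly higher in these cells than elsewhere. Of 15 listed genes that could be tested, 9 were higher than in the other barcodes and 1 was lower (median log2 ratio 3.33), and 12 of 14 were higher than in pericyte-like barcodes. Abcb1a (ENSMUSG00000040584, chromosome 5, 8660077 to 8748575), the P-glycoprotein pump that returns drugs to the blood, stood at 785 CPM (742 to 831) in 124 of 138 cells against 1.15 CPM, 680-fold (568 to 820). Thinned to 1000 UMIs, 58.1% of endothelial cells kept a UMI of it, against 0%, 0.0890% and 0.0524% of pericyte-like, C1q macrophage and Leydig barcodes. Abcg2, a second efflux pump, stood at 796 CPM (752 to 842) in 133 cells against 12.2 CPM in the others and 40.2 CPM in pericyte-like barcodes. Slco1a4, an organic anion carrier, stood at 344 CPM in 105 cells, with 0 UMIs in pericyte-like barcodes. With that 0 set at 3 UMIs, it was 163-fold higher than there. Mfsd2a, the carrier of lysolipids bearing omega-3 fatty acids that also limits transcytosis in brain vessels, stood at 553 CPM (516 to 592) in 110 cells against 11.9 CPM. The glucose carrier Slc2a1 stood at 213 CPM (190 to 237) in 89 cells against 10.4 CPM. The large amino acid carrier Slc7a5 stood at 1543 CPM (1482 to 1607) against 209 CPM, and its partner chain Slc3a2 at 1212 CPM against 657 CPM, which is under 4-fold.

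Not every barrier gene was there. Slco1c1, the thyroxine carrier of brain vessels, had 0 UMIs in the 138 cells. Tfrc, the transferrin receptor, had 9 UMIs in 8 cells, 5.86 CPM (2.68 to 11.1) against 20.9 CPM in the others, and was singled out after its value was seen. Ly6a, a surface antigen of many mouse vessels, had 3 UMIs, a ratio of 0.0378 (0.00779 to 0.110) to the other barcodes, while Ly6c1, of the same family, stood at 579 CPM against 32.8 CPM. Of junction genes, 6 of 12 were higher and 1 lower. Tjp1 (ZO-1) stood at 317 CPM (289.9 to 347) against 39.9 CPM and Jup (plakoglobin) at 163 CPM against 19.1 CPM. Ocln, occludin, stood at 29.9 CPM (21.9 to 39.9) in 34 cells against 5.07 CPM, and Cgn, cingulin of epithelial junctions, at 2.60 CPM against 33.5 CPM.

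**Figure D2:**
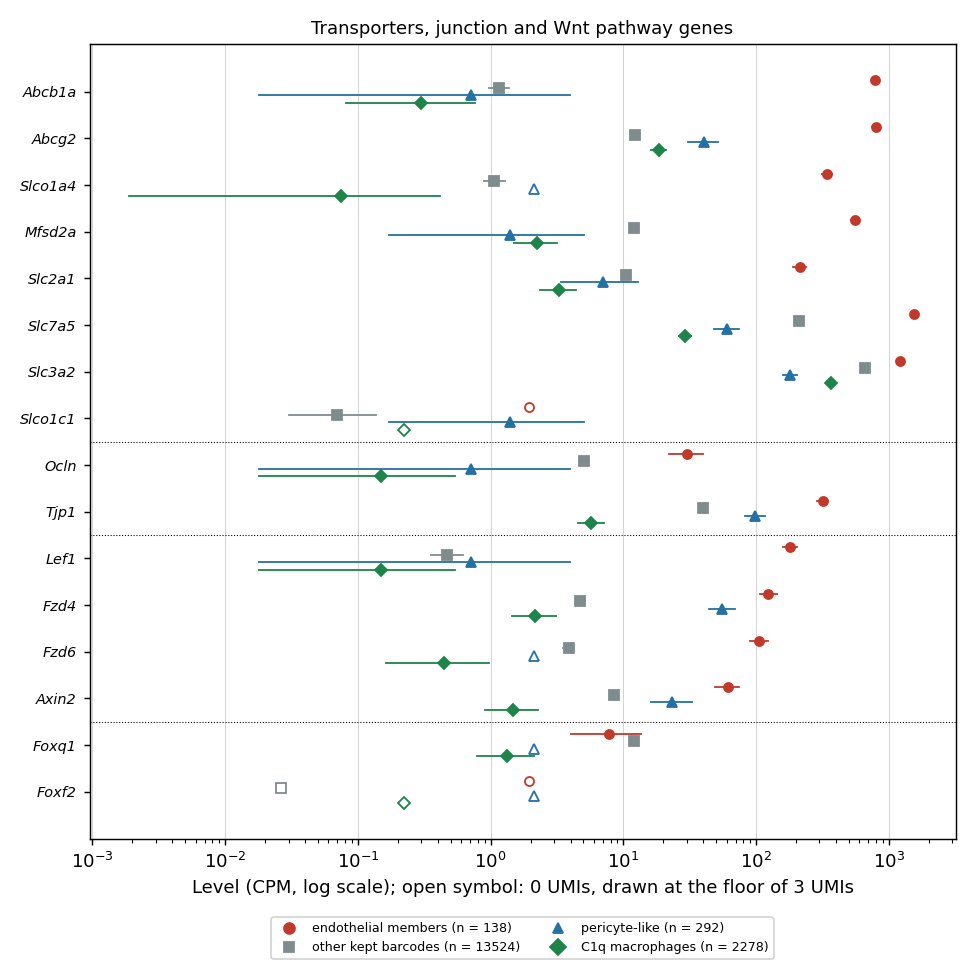
Levels in CPM (log scale) of transporter, tight junction, Wnt pathway and 2 forkhead genes in endothelial, pericyte-like, C1q macrophage and other kept barcodes; bars are 95% Poisson intervals and open symbols mark 0 UMIs at the floor of 3 UMIs. Abcb1a, Slco1a4, Mfsd2a and Lef1 lie far to the right in endothelial barcodes, whereas Slco1c1 and Foxf2 had 0 UMIs.

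Brain and retinal vessels need Wnt signals to form a barrier. Of 9 Wnt pathway genes tested, 6 were higher than in the other barcodes and 1 was lower, beside 9.22% and 9.63% of all genes. Against pericyte-like barcodes 2 of 10 were higher and 2 lower, beside 6.96% and 10.2% of all genes. Lef1, a nuclear partner of beta-catenin, stood at 182 CPM (161 to 204) in 92 cells against 0.472 CPM in the others, 384-fold (286 to 524). The receptors Fzd4 and Fzd6 stood at 124 CPM and 106 CPM against 4.75 CPM and 3.88 CPM. Axin2, a feedback target of the pathway, stood at 61.2 CPM (49.4 to 74.8) in 54 cells against 8.45 CPM. Tspan12, a co-receptor that works with Fzd4, stood at 41.0 CPM against 3.95 CPM. Adgra2 (Gpr124), the co-receptor for Wnt7 ligands, had 0 UMIs against 37.4 CPM in pericyte-like barcodes, and its partner Reck had 5 UMIs, 3.25 CPM against 64.2 CPM there. The ligand Wnt5a had 4 UMIs, 2.60 CPM against 66.0 CPM in the other barcodes.

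Of 9 genes of the VEGF list tested against the other barcodes, 7 were higher and 1 lower, and of 10 tested against pericyte-like barcodes 5 were higher and 1 lower. Flt1, the decoy receptor VEGFR1, stood at 473 CPM (439 to 509) in 117 cells against 0.901 CPM, 525-fold (426 to 652), and had 0 UMIs in pericyte-like barcodes. Flt4, the receptor for VEGF-C, stood at 70.9 CPM (58.2 to 85.5) in 62 cells against 0.735 CPM. The semaphorin receptor Plxnd1 stood at 564 CPM against 60.6 CPM. The neuropilin Nrp1, a co-receptor, stood at 455 CPM against 102 CPM in the others and 250.3 CPM in pericyte-like barcodes, and Nrp2 at 131 CPM against 29.8 CPM. Among ligands, Vegfa stood at 126 CPM (109 to 145) in 81 cells against 15.8 CPM, and Vegfc at 29.3 CPM (21.3 to 39.2) in 23 cells against 0.787 CPM. Vegfb did not reach 4-fold, at 26.7 CPM against 61.5 CPM, and Vegfd stood at 8.46 CPM against 65.9 CPM. Pgf, placental growth factor, had 3 UMIs in the 138 cells against 96 in pericyte-like barcodes, a ratio of 0.0288 (0.00584 to 0.0868).

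The receptor Tek (Tie2) stood at 209 CPM (187 to 234) in 103 cells against 0.901 CPM in the others and 3.53 CPM in pericyte-like barcodes. Both ligands had few UMIs, lay above the other barcodes and below the pericyte-like ones, and did not meet the size rule in either comparison. Angpt1, the agonist that pericytes supply, had 16 UMIs in 12 cells, 10.4 CPM (5.95 to 16.9) against 2.16 CPM in the others and 35.3 CPM in pericyte-like barcodes. Angpt2, the context-dependent antagonist, had 22 UMIs in 9 cells, of which 12 lay in 1 cell, 14.3 CPM (8.97 to 21.7) against 1.78 CPM in the others, 8.02-fold (4.92 to 12.5), and 52.9 CPM in pericyte-like barcodes. Foxo1, a transcription factor held in check by Tie2 signalling, stood at 103 CPM against 22.6 CPM.

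Some Notch genes differed by paralogue between endothelial and pericyte-like barcodes. Of 11 genes tested against the other barcodes, 8 were higher and 1 lower. Of 14 tested against pericyte-like barcodes 5 were higher and 4 lower, Notch3 among the lower ones. The other 5, Jag1, Notch4, Rbpj and the targets Hes1 and Nrarp, were neither. The ligand Dll4 stood at 155 CPM (136 to 176) in 86 cells against 0.271 CPM, 573-fold (393 to 863), with 0 UMIs in pericyte-like barcodes. The ligand Jag2 stood at 80.7 CPM in 69 cells against 0.997 CPM, while Jag1 stood at 51.4 CPM against 116 CPM in pericyte-like barcodes. The receptor Notch1 stood at 190.0 CPM (169 to 213) against 12.9 CPM and 45.1 CPM, and Notch4 at 63.8 CPM against 3.53 CPM and 16.2 CPM in the same sets. Notch3, a pericyte gene of the pericyte rule, stood at 4.55 CPM against 438 CPM in pericyte-like barcodes. Notch2 had 3 UMIs, a ratio of 0.0369 (0.00744 to 0.112) to pericyte-like barcodes. Targets of the Hey family went both ways. Hey1 had 53 UMIs in 20 cells, 34.5 CPM, against 3 UMIs in pericyte-like barcodes, a ratio of 16.3 (5.28 to 81.6). Heyl stood at 5.86 CPM against 147 CPM, and Hey2 had 2 UMIs against 55, a ratio of 0.0336 (0.00396 to 0.127). Mfng, a sugar transferase that tunes Notch receptors, stood at 122 CPM with 0 UMIs in pericyte-like barcodes.

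BMP and TGF-beta genes were higher in 6 of 13 cases and lower in none against the other barcodes, beside 9.22% and 9.63% of all genes. Against pericyte-like barcodes 3 of 14 were higher and 1 lower, beside 6.96% and 10.2% of all genes. Id1, a target of BMP signals, stood at 927 CPM (880 to 976) in 110 cells against 136 CPM. Smad7, an inhibitor of the pathway, stood at 239 CPM against 24.7 CPM, and the co-receptor Eng at 565 CPM (528 to 604) in 122 cells against 17.6 CPM. The receptor Bmpr2 stood at 282 CPM against 46.0 CPM. Acvrl1 (ALK1), its endothelial partner, reached 79.4 CPM (65.9 to 94.8) against 24.7 CPM, a ratio of 3.21 (2.66 to 3.85) that is under 4-fold, and was singled out after its value was seen.

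Of 23 transcription factors with known roles in endothelium or its neighbours, 19 were higher than in the other barcodes and 2 lower, with a median log2 ratio of 4.32. Against pericyte-like barcodes 14 of 23 were higher, 2 lower and 7 neither, Ets1, Klf2 and Foxo1 among the last. The SOXF factors, which direct vessel growth and arterial and lymphatic identity, were present together. Sox18 stood at 557 CPM (520 to 595) in 125 cells against 1.10 CPM, 505-fold (418 to 614). Sox17 stood at 255 CPM (230 to 282) in 100 cells against 0.359 CPM, 711-fold (515 to 1006). Sox7 stood at 109 CPM against 1.85 CPM. Of the ETS family, Erg stood at 129 CPM (111 to 148) in 78 cells against 0.472 CPM, Fli1 at 379 CPM against 20.6 CPM and Ets1 at 366 CPM against 10.2 CPM. Mecom, an arterial regulator, stood at 196 CPM against 0.779 CPM, and Foxf1, a forkhead factor of visceral vessels, at 85.2 CPM in 74 cells against 0.490 CPM. Meox1 stood at 101 CPM against 0.735 CPM, with 0 UMIs of its relative Meox2. Foxf2, a forkhead factor of brain vessels and their pericytes, also had 0 UMIs. Gata4, a factor of Sertoli and Leydig cells and of liver sinusoids, had 7 UMIs, 4.55 CPM against 54.4 CPM. Klf2, induced by blood flow, stood at 1848 CPM against 552 CPM, under 4-fold.

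A gene of the Sertoli list stood high in the same cells. Wt1 (ENSMUSG00000016458, chromosome 2, 105126529 to 105173616), the Wilms tumour transcription factor that Sertoli cells need, stood at 368 CPM (339 to 399.9) in endothelial cells, with a median of 3 UMIs and up to 21 in 1 cell. It was detected in 115 of 138 cells (83.3%), against 10.2% of the other barcodes, 4.45% of pericyte-like, 2.19% of C1q macrophage and 3.103% of Leydig barcodes. Median depths were 8992.5 UMIs in endothelial, 4547.5 in pericyte-like, 5633 in C1q macrophage and 15314.5 in Leydig barcodes. With each cell thinned to 1000 UMIs, which left out 2, 1, 30 and 240 shallower barcodes of these sets, the share was 31.6% against 1.03%, 0.267% and 0.419% in the last 3 sets. Other Sertoli genes were set beside it. Sox9 had 9 UMIs in 3 cells, Amh had 0 UMIs, and Defb19 stood at 214 CPM against 3770.4 CPM in the other barcodes. The ratio of Wt1 to Defb19 UMIs was 1.72 in endothelial cells, 0.00797 in the other barcodes, 0.0282 in pericyte-like and 0.000718 in Leydig barcodes. Defb19 stood at 5052 CPM in Leydig barcodes, in 99.5% of them, which lowers the ratio there. No set of Sertoli barcodes was compared, and where the Wt1 UMIs came from was not tested. In the 119 cells without 3 or more UMIs of pericyte, fibroblast, macrophage or germ cell genes, Wt1 stood at 409 CPM, with a ratio to Defb19 of 2.18 and 3 UMIs of Sox9. Clu, the third gene of the Sertoli list found widely, was in 114 of 138 cells and stood at 604 CPM. It stood at 1924 CPM in the others, 228 CPM in pericyte-like and 2017 CPM in Leydig barcodes, in 97.3% of the last. Its ratio to Defb19 was also higher in endothelial cells, at 2.82 against 0.51 in the other, 0.365 in pericyte-like and 0.399 in Leydig barcodes.

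Secreted factors with a role in stem cell niches showed no common direction: of 11 tested, 2 were higher, 4 lower and 5 neither, with a median log2 ratio of -0.28. Cxcl12, a chemokine that retains stem cells, stood at 696 CPM (655 to 739) in 123 cells against 164 CPM. Pdgfb, which recruits pericytes, stood at 257 CPM (232 to 284) in 109 cells against 11.4 CPM in the others and 19.7 CPM in pericyte-like barcodes. Kitl, the ligand of the germ cell receptor Kit, stood at 401 CPM (369.7 to 434) in 111 cells against 142 CPM, 2.81-fold (2.59 to 3.05). Gdnf, the self-renewal factor of spermatogonial stem cells, had 0 UMIs, as did Igf2, Lif and Rspo3. Igf1 stood at 15.0 CPM in 9 cells against 329.7 CPM in the others and 453 CPM in pericyte-like barcodes. Cxcl2 stood at 5.20 CPM against 57.5 CPM and Igfbp2 at 7.16 CPM against 62.6 CPM. Fgf2 had 8 UMIs in 6 cells, 5.20 CPM against 14.1 CPM. Tgfb1, Bmp4, Csf1 and Jag1 lay between 18.2 and 65.1 CPM, none of them 4-fold from the other barcodes.

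**Figure D3:**
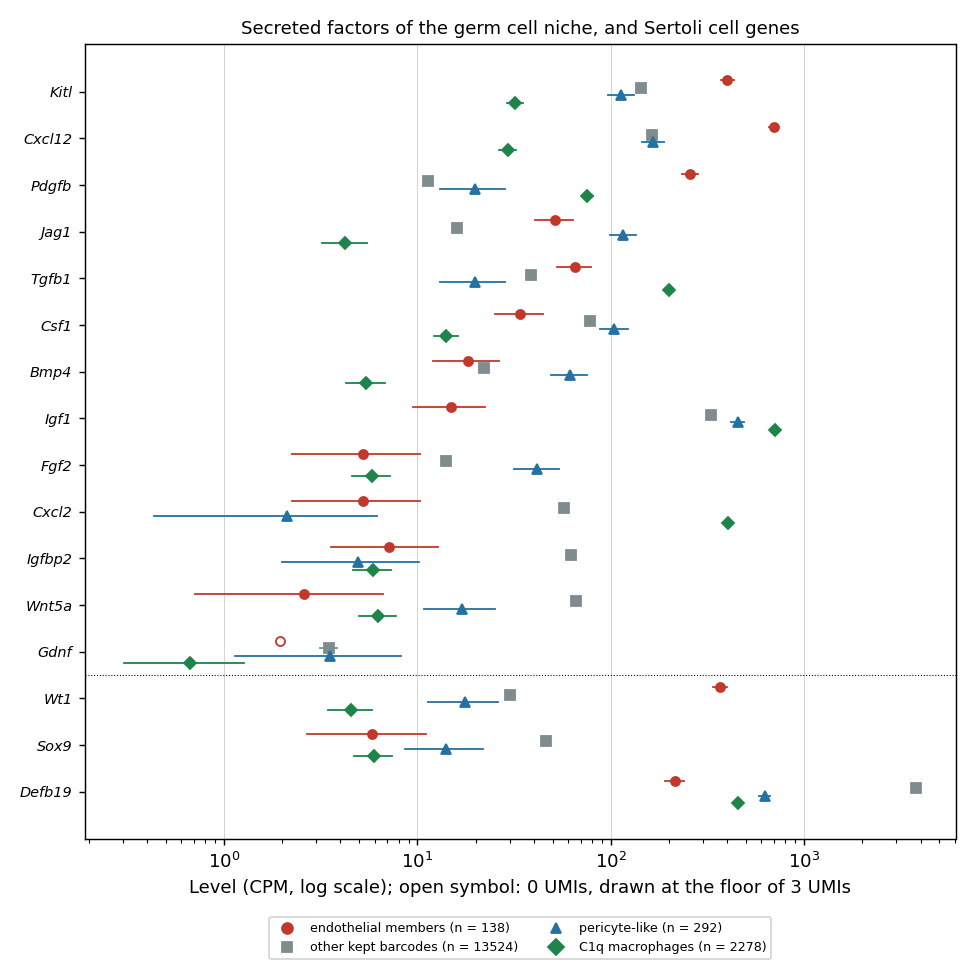
Levels in CPM (log scale) of secreted factors and of Sertoli genes in endothelial, pericyte-like, C1q macrophage and other kept barcodes; bars are 95% Poisson intervals and the open symbol marks 0 UMIs at the floor. Cxcl12, Pdgfb, Kitl and Wt1 were farthest right in endothelial barcodes, while Gdnf had 0 UMIs there and Defb19 was highest in the other barcodes.

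Of 6 genes for lipid uptake tested, 2 were higher and 4 lower than in the other barcodes, and 2 were higher and 2 lower than in pericyte-like barcodes. Scarb1, the HDL receptor, stood at 669 CPM (629 to 712) in 122 cells against 74.2 CPM in the others and 11.3 CPM in pericyte-like barcodes. Gpihbp1, which carries lipoprotein lipase to the capillary surface, stood at 48.8 CPM (38.4 to 61.2) in 29 cells against 0.131 CPM. Cd36, the fatty acid translocase, had 4 UMIs in 4 cells, 2.60 CPM against 103 CPM, and Fabp4, the fatty acid binder of muscle and fat capillaries, had 1 UMI. Genes of the caveolae list were higher in 4 of 7 cases, among them Ehd4 at 825 CPM against 61.5 CPM. Cav1, Cavin1 and Cavin2, named after their values were seen, were neither higher nor lower. Cav1 stood at 126 CPM against 80.2 CPM in the others and 382 CPM in pericyte-like barcodes. Against pericyte-like barcodes Ehd4 alone of the 7 was higher and 0 were lower, with a median log2 ratio of 0.22.

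Of genes acting on vessel tone, 6 of 11 were higher and 2 lower than in the other barcodes, beside 9.22% and 9.63% of all genes. Against pericyte-like barcodes 5 of 12 were higher and 4 lower, beside 6.96% and 10.2% of all genes, and Ece1 was among the 3 that were neither. Nos3, endothelial nitric oxide synthase, stood at 94.98 CPM (80.2 to 112) in 75 cells against 0.849 CPM, with 0 UMIs in pericyte-like barcodes. Ece1, which activates endothelin, stood at 342 CPM against 80.8 CPM, and Ptgs1 at 118 CPM against 15.3 CPM. The endothelin receptor Ednra stood at 8.46 CPM against 186 CPM in pericyte-like barcodes. Of clotting genes, 4 of 7 were higher: beside Vwf, the anticoagulant receptors Procr at 120.4 CPM in 63 cells and Thbd at 50.7 CPM in 43 cells, and the plasminogen activator Plat at 54.7 CPM, against 2.06, 11.4 and 6.09 CPM. Against pericyte-like barcodes 1 of the 7 clotting genes, Vwf, was higher. Of 21 basement membrane genes, 10 were higher and 1 was lower than in the other barcodes, beside 9.22% and 9.63% of all genes. Against pericyte-like barcodes 2 of 22 were higher and 2 lower, with a median log2 ratio of -0.60. Over all genes 6.96% were higher and 10.2% lower in that comparison, so these small counts for clotting and basement membrane genes do not set either list apart. Col4a1 and Col4a2, the chains of vascular collagen IV, stood at 835 and 664 CPM against 132 and 90.1 CPM in the others, but at 1577 and 1180 CPM in pericyte-like barcodes. Hspg2 (perlecan) stood at 428 CPM against 45.2 CPM and 157 CPM in the same sets, and Sparc, a collagen-binding glycoprotein, at 7571 CPM (7434 to 7710) against 1850.9 CPM and 2641 CPM.

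Leukocyte adhesion genes showed 4 of 11 higher and 3 lower. Icam2, the resting-state ligand for leukocyte integrins, stood at 269 CPM (244 to 297) in 113 cells against 1.54 CPM, and the chemokine scavenger Ackr3 at 201 CPM in 96 cells against 5.99 CPM. Vcam1, an inducible integrin ligand, stood at 91.1 CPM (76.6 to 107) against 1548 CPM in the others and 340 CPM in pericyte-like barcodes. Sele, Ackr1, Madcam1, Ackr4 and Cxcl9 had 0 UMIs. MHC class I genes did not reach 4-fold against the other barcodes, with H2-D1 at 852 CPM against 327 CPM, 2.61-fold (2.47 to 2.76), and H2-K1 at 651 CPM against 281 CPM. Both were higher than in pericyte-like barcodes, where H2-D1 stood at 199.5 CPM and H2-K1 at 148 CPM. All 4 class II genes were lower than in the other barcodes, with H2-Aa at 3.25 CPM in 5 cells against 127 CPM in the others and Cd74 at 5.20 CPM against 221 CPM. Interferon genes were higher than in the other barcodes in 4 of 9 cases and lower in 1, beside 9.22% and 9.63% of all genes. Iigp1, an interferon-induced GTPase, stood at 267 CPM (241 to 294) in 79 cells against 20.5 CPM, and Isg15 at 99.5 CPM in 65 cells against 13.96 CPM.

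Genes of glucocorticoid response and hormone reception were looked at because of the genotype and the Leydig neighbourhood. Tsc22d3 itself (ENSMUSG00000031431, chromosome X, 140539528 to 140600659) had 15 UMIs in 11 of the 138 cells, 9.76 CPM (5.46 to 16.1) against 6.54 CPM in the others. A 3′ tag outside the deleted stretch does not check the knockout, and the stretch was not analysed here. The glucocorticoid receptor Nr3c1 stood at 121 CPM (104 to 140) in 85 cells against 83.0 CPM. Of 8 glucocorticoid genes tested, only Sgk1, a kinase induced by steroid hormones, was higher, at 152 CPM (133 to 172) against 30.3 CPM, and 0 were lower. Over all genes 9.22% were higher and 9.63% lower, so this count does not set the list apart. The insulin receptor Insr stood at 152 CPM against 36.9 CPM. Esr1 stood at 7.81 CPM against 95.005 CPM, and Lhcgr, the luteinizing hormone receptor of Leydig cells, at 18.9 CPM against 286 CPM. Early response genes were near the other barcodes in 13 of 15 cases, with Fos at 4603 CPM against 2734 CPM, while Ier3 stood at 1800.2 CPM against 405 CPM.

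Vessel type was read from lists of artery, vein, capillary and lymphatic genes, a cell counting for a list with 2 or more of its genes and 3 or more UMIs. Vein genes were met in 89 of 138 cells (64.5%, 55.9 to 72.4%), artery genes in 73 (52.9%, 44.2 to 61.4%), capillary genes in 59 (42.8%, 34.4 to 51.5%) and lymphatic genes in 3 (2.17%, 0.451 to 6.22%). The lists did not divide the cells, since 80 met 2 or more lists, 32 met artery, vein and capillary together and 28 met none. The vein list holds Vwf, which is also in the list of general endothelial genes, and without it the vein list was met in 47 of 138 cells (34.1%, 26.2 to 42.6%), an alternative added after seeing the data. The numbers of cells that met several lists count Vwf too. With cells thinned to 1000 UMIs the shares dropped to 7.35% for artery, 2.94% each for vein and capillary and 0% for lymphatic genes (exact upper limit 2.68%) among 136 cells, and no cell met 2 lists.

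Single genes of these lists differed in how widely they were found. Of artery genes, Efnb2 was in 73 cells (116 CPM), Sema3g in 53 (82.6 CPM), Bmx in 43 (50.1 CPM) and Gja4, a gap junction connexin, in 31 (96.3 CPM), while Gja5 had 0 UMIs. Gja4 stood at 455 CPM in pericyte-like barcodes, above its level in the endothelial cells. Of vein genes, Slco2a1, the prostaglandin carrier, stood at 133 CPM in 71 cells against 14.1 CPM in the others, Selp, the P-selectin of postcapillary venules, at 20.2 CPM in 12 cells, and Nr2f2, the factor that specifies veins, at 50.7 CPM in 43 cells against 232 CPM. Of capillary genes, Car4, a carbonic anhydrase, stood at 309 CPM (282 to 338) in 84 cells against 0.647 CPM, Rgcc at 113 CPM in 66 cells and Cd300lg at 28.0 CPM in 24 cells, while Btnl9 had 0 UMIs. Of lymphatic genes, Lyve1, Ccl21a and Mmrn1 had 0 UMIs and Prox1, the master regulator of lymphatic fate, had 1.

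Subsets of these cells were described by single genes chosen after values were seen. To keep out mixed barcodes, 18 cells with 3 or more UMIs of pericyte, fibroblast or smooth muscle genes were left aside, which left 120. Of these, 17 had 2 or more UMIs of Gja4 and 8 more had exactly 1, and 10 had 2 or more UMIs of Apln, an endothelial peptide of sprouting tip cells, and 10 more exactly 1. Over all endothelial cells Apln stood at 62.5 CPM against 118 CPM in the other, 195 CPM in Leydig and 12.7 CPM in pericyte-like barcodes. Thinned to 1000 UMIs, 5.15% of endothelial cells and 17.7% of Leydig barcodes had a UMI of it, and the part of background UMIs in who entered the set was not tested. No cell was in both sets. The intervals below are for UMIs pooled over the cells of a set and do not cover spread between cells. Median depth was 15345 UMIs in the Gja4 set against 7372 in the other 103 cells, and 11767.5 in the Apln set against 8416.5 in the other 110, and the part of depth in who entered a set was not tested.

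The 17 Gja4 cells had more UMIs of other arterial genes. Hey1 stood at 140.3 CPM (97.2 to 196) against 16.2 CPM (9.47 to 26.0) in the 103, and Sox17 at 508 CPM (422 to 606) against 203 CPM (176 to 232). Sema3g stood at 186 CPM against 60.2 CPM, and the Notch ligand Jag1 at 140.3 CPM against 30.6 CPM. Vegfc stood at 120 CPM (80.1 to 172) in 11 of 17 cells against 12.4 CPM in 10 of 103. Several transporters were also above the rest: the taurine carrier Slc6a6 stood at 1890 CPM (1721 to 2071) in 16 of 17 cells against 381 CPM in 37 of 103, Slc2a1 at 607 CPM (512 to 713) against 141 CPM and Mfsd2a at 1102 CPM (974 to 1242) against 469 CPM. Slco1a4 did not differ beyond its interval, at 342 CPM (273 to 425) against 355 CPM (319 to 393). Several capillary and venule genes stood lower. Gpihbp1 and Selp had 0 UMIs in the 17 cells, which allows up to 15.2 CPM, against 60.2 and 29.6 CPM. Car4 stood at 70.1 CPM (40.9 to 112) against 382 CPM. Vwf and Slco2a1 of the vein list did not stand lower. Vwf was at 709.7 CPM (608 to 824) against 486 CPM (444 to 530) and Slco2a1 at 153 CPM (107 to 210.4) against 139 CPM (117 to 163). Nr2f2, of the same list, had 5 UMIs, 20.6 CPM (6.70 to 48.1) against 36.3 CPM (25.7 to 49.9), and the intervals overlapped. Ephb4 and Lrg1 were not compared between these sets. Igfbp3, an insulin-like growth factor binder, had 39 UMIs in 6 of the 17 cells, 32 of them in 1.

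Of genes known from sprouting vessels, some stood higher in the 10 Apln cells and others did not. Angpt2 stood at 102 CPM (55.8 to 171) against 6.08 CPM in the 110, though its 14 UMIs lay in 3 cells, 12 of them in 1. Adm, adrenomedullin, stood at 117 CPM (66.7 to 190) in 6 of 10 cells against 7.82 CPM, and the receptor Kit at 161 CPM (101 to 243) in 9 of 10 against 28.7 CPM in 25 of 110. Col4a1 stood at 1788 CPM (1571 to 2026) against 652 CPM (606 to 701), Pdgfb at 518 CPM against 234 CPM and Trp53i11 at 459.7 CPM against 151 CPM. Esm1, a tip cell proteoglycan, had 4 UMIs, all in 1 cell, against 0 in the 110. The apelin receptor Aplnr stood at 65.7 CPM (30.03 to 125) against 61.7 CPM, Cxcr4 at 29.2 CPM (7.95 to 74.7) against 23.4 CPM and Kdr at 431 CPM (328 to 555) against 439 CPM, within their intervals. Flt1 stood lower in pooled UMIs, at 306 CPM (221 to 414) in 8 of 10 cells against 518 CPM (477 to 561) in 93 of 110. Hey1 and Sema3g had 0 UMIs in the 10 cells, which allows up to 26.9 CPM, against 44.3 and 93.8 CPM. Mfsd2a stood lower in them, at 182 CPM (118 to 269) against 637 CPM (591 to 684), and Slc6a6 at 131 CPM in 1 of 10 cells against 729 CPM in 52 of 110.

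**Figure D4:**
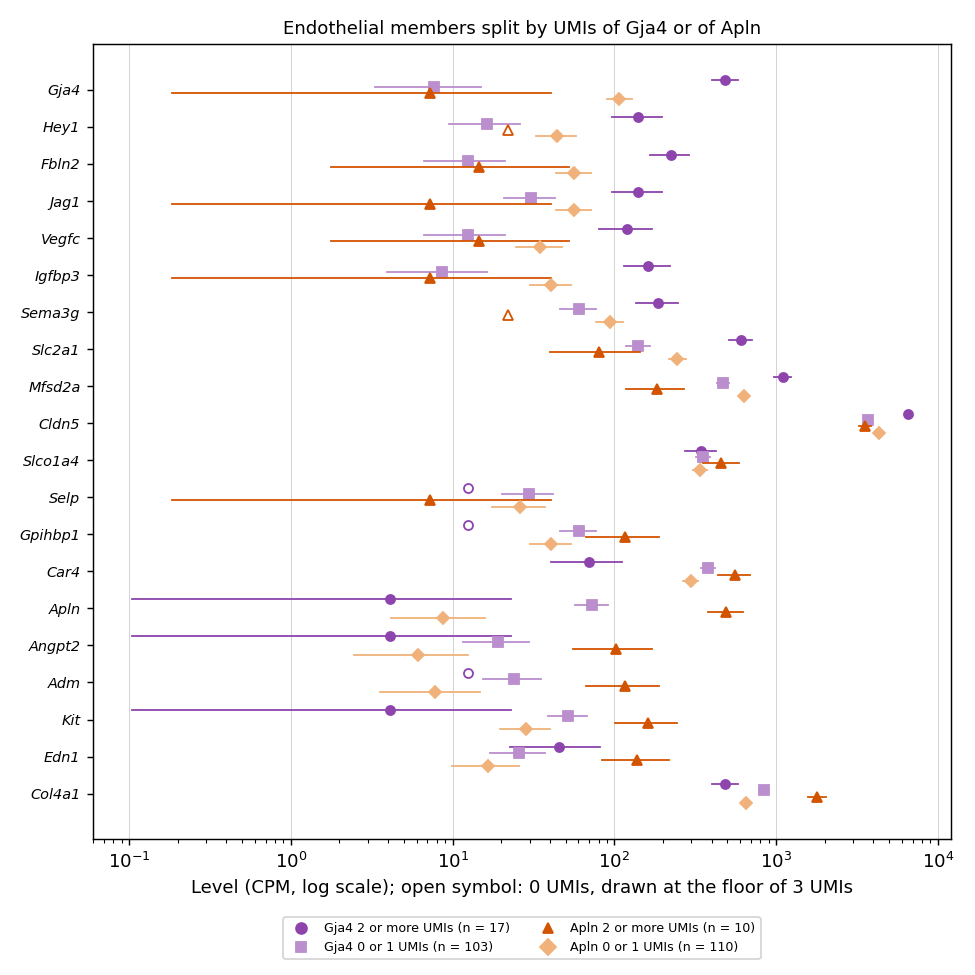
Levels in CPM (log scale) of 20 genes in endothelial cells of the knockout testis split by UMIs of Gja4 (17 against 103 cells) or of Apln (10 against 110 cells); bars are 95% Poisson intervals and open symbols mark 0 UMIs at the floor of 3 UMIs. Hey1, Fbln2, Vegfc and Slc2a1 lie farther right in Gja4 cells, and Angpt2, Adm, Kit and Col4a1 in Apln cells. Of the 14 Angpt2 UMIs in Apln cells, 12 lay in 1 cell.

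Of 12 genes of cell division, at least 1 UMI was found in 88 of the 138 cells and 3 or more UMIs in 37. At least 3 UMIs of Mki67 and Top2a were found in 7 of 138 cells (5.07%, 2.06 to 10.2%), 2 of which also carried germ cell genes, against 205 of 13524 other barcodes (1.52%) at lower depth. Of 7 cell cycle genes tested, 0 were higher and 0 lower.

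Outside every list, the 20 genes with the largest ratios to the other barcodes were as follows. Gabrp, a GABA-A receptor subunit, had 102 UMIs in 26 cells, 66.4 CPM (54.1 to 80.6) against 0.0525 CPM, 1264-fold (561 to 3525). Adgrl4, an adhesion receptor of growing vessels, stood at 249 CPM (224 to 275) in 102 cells against 0.280 CPM, and its relative Adgrf5 at 281 CPM against 0.674 CPM. Myct1, an endothelial membrane protein, stood at 230.3 CPM against 0.367 CPM. Ctla2a, a protease inhibitor, stood at 1523 CPM in 130 cells against 3.63 CPM. The progestin receptor family member Paqr5 stood at 173 CPM in 91 cells against 0.254 CPM. Prom1, known as the stem cell antigen CD133, stood at 102 CPM in 72 cells against 0.184 CPM, and Tnfrsf19 at 146 CPM against 0.289 CPM. The mechanically gated channel Piezo2 stood at 52.0 CPM in 45 cells against 0.105 CPM. Samd12, Cyyr1, Wscd1, Scgb3a1, Tmem252, Rbp7, Syt15, Irx3, Gimap1, Arhgef15 and Unc45b completed the 20 largest, with 57.9 to 251 CPM against 0.123 to 0.507 CPM.

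Against pericyte-like barcodes the unlisted genes with the largest ratios in endothelial cells included Mal, a raft protein, at 911 CPM with 0 UMIs in pericyte-like barcodes. With that 0 set at 3 UMIs, Mal was 431-fold higher, and the exact lower limit was 350-fold. Tspan13 had 832 UMIs against 1, a ratio of 768 (137 to 30357). Itga6, an integrin chain for laminin, had 391 UMIs against 2, a ratio of 180.4 (49.6 to 1495). Adrb1, the beta-1 adrenergic receptor, had 175 UMIs against 1, a ratio of 161 (28.6 to 6414). Sema7a had 425 UMIs against 2. Gbp4, Rasgrp3, Arap3, Rnd1, Irx3, Rbp7 and Ctla2a were the other 7. In the other direction Pi15 had 0 UMIs against 239 CPM. With that 0 set at 3 UMIs, Pi15 was 122-fold lower, and the exact lower limit was 99.1-fold. Sncg had 1 UMI against 391, a ratio of 0.00236 (5.96e-05 to 0.0132), and Igfbp5 had 3 UMIs against 435, a ratio of 0.00636 (0.00131 to 0.0187). Rergl, Nrip2, Fblim1, Rbm24, Gpc6, Rcan2, Colec11, Slc22a3 and Tmem100 had 1 to 4 UMIs in endothelial cells against 72.6 to 349 CPM in pericyte-like barcodes.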

How the data were processed

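Single-cell 3′ libraries, 1 per group, were grouped by their titles. The authors deposited raw UMI counts per gene and barcode, whole numbers with no normalization. Per the submitters' processing notes they used Cell Ranger 6, Seurat 4.2.1 and GRCm38.p6. Per the file headers, both KO matrices were written by Cell Ranger 6.1.2 and the chimera matrix by Cell Ranger 4. Barcodes were kept and assigned by the rule given in the report, and their counts were summed per set and scaled to CPM, so that deep barcodes weigh more. The endothelial sum was 1537096 UMIs, and 0 UMIs stood at a floor of 3 UMIs, 1.95 CPM there, 2.12 CPM in pericyte-like and 0.0262 CPM in other barcodes. Levels carry exact Poisson, shares exact binomial (Clopper-Pearson) and ratios exact conditional binomial 95% intervals, checked on simulated data, and all cover counting error only. Thinning to 1000 UMIs used seed 7. Leydig barcodes had at least 1% Leydig gene UMIs, since 5% was met by 0 barcodes, and C1q macrophages at least 0.5% C1q UMIs. The members and the 39 gene lists were chosen with earlier results of these data known.

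Genes named were the 7 rule genes, any gene of the artery, vein, capillary, lymphatic, VEGF, angiopoietin and niche factor lists, of the other lists those past the size rule and the 4 with most UMIs, and outside the lists the 20 largest ratios to other barcodes and the 12 largest each way to pericyte-like barcodes among genes of at least 50 CPM. Mitochondrially encoded, ribosomal protein, Gm-numbered and Rik genes were left out of the last 2 groups. Any other gene was chosen after its values were seen. Python 3.11.15, numpy 2.4.6, scipy 1.17.1, pandas 2.3.3 and matplotlib 3.10.9 were used. Promoter sequences are from RefSeq (GRCm38.p6).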

Additional observations from a re-analysis of the deposited data

Results flagged for a closer look

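Endothelial transcripts also lay in barcodes that the rule left out. In the knockout testis 7 barcodes over the limit on mitochondrially encoded UMIs met the endothelial gene criterion, and 5 of them failed by that limit alone. They held 20.3 to 50.7% mitochondrially encoded UMIs. Cldn5 stood at 1525 CPM in the 7 (95% interval 1209 to 1898), Abcb1a at 381 CPM and Wt1 at 191 CPM. One barcode of the 7 carried lymphatic genes that had 0 UMIs in the 138 endothelial cells: 321 UMIs of the chemokine Ccl21a, 9 of Mmrn1 and 8 of Lyve1, beside 2 of Prox1 and 7 of Reln. Plvap, with 0 UMIs in the 138 cells, had 3 UMIs in 2 of these 7 barcodes. Gpihbp1 stood at 248 CPM (132 to 424) against 48.8 CPM in the 138 cells, and 10 of its 13 UMIs lay in 1 barcode.

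A further 21 kept barcodes met the endothelial gene criterion and were left out for holding 0.505 to 2.22% Leydig gene UMIs. Their median depth was 18608 UMIs against 8992.5 in the endothelial cells. Cldn5 stood at 726 CPM (647 to 813), Abcb1a at 208 CPM and Wt1 at 115 CPM, beside 4622 CPM of Cyp17a1 and 3059 CPM of Insl3. Whether these barcodes each hold more than 1 cell was not tested.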

How the results depend on the processing

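A minimum of 1000 UMIs, 4 of the 7 genes, a Leydig limit of 0.2% and leaving out the 19 cells mixed with 4 other cell types (the last chosen after seeing the data) each kept all 18 values recomputed within 1.5 times, or, for shares, within their intervals. With a mitochondrial limit of 10%, 17 of 18 did so, and 1 niche factor gene was higher in place of 2. Leaving out every cell with 3 UMIs of any of 5 cell types left 13 cells, because the Sertoli list holds Wt1, Clu and Defb19, which 123 cells met: 1139 genes were then higher and 240 lower than in other barcodes, 989 higher and 225 lower than in pericyte-like ones, 5 Notch genes were higher, and artery, vein, capillary and lymphatic shares were 7.69%, 30.8%, 30.8% and 0%. A 5 CPM minimum gave 1328 lower genes against other and 1297 against pericyte-like barcodes. A 2-fold rule gave 1364 higher and 1349 lower, and 1086 higher and 1405 lower, in the same order. Thinning gave vessel shares of 7.35% (artery), 2.94% (vein), 2.94% (capillary) and 0% (lymphatic), and a minimum of 5 UMIs gave 39.9% for artery and 0% for lymphatic genes. A vein list without Vwf, chosen later, gave a vein share of 34.1%. Leaving out the other barcodes with 2 or more endothelial genes, also chosen later, moved no count by over 1.5 times. Weighting every barcode equally, run for 13 of the 18 values, kept all 13. No paired analysis was possible because each group was 1 library.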
